A study of Bos taurus with 8 samples.

Results

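HES1, HES6, NOTCH2 and NOTCH3 were followed in circulating granulocytes of cattle, as relatives of HES4, which the study's title names as responding to interferon tau, the signal a bovine embryo sends to its mother. They are 4 of the 6606 genes that could be named on the array, each with 1 probe, and were chosen by gene symbol and not by their signal. No probe was matched to HES4 itself, so no value is given for it. Granulocytes are the white blood cells with granules, chiefly neutrophils, with some eosinophils and few basophils. The same 4 cows (Bos taurus) were sampled before embryo transfer, when not pregnant at day 7 of their cycle (day 7 group, 4 arrays), and again on day 21, pregnant by embryo transfer (day 21 group, 4 arrays). Every cow went from day 7 to day 21, so pregnancy, transfer, cycle day and calendar time cannot be told apart. The labels used here state neither age nor breed nor how the granulocytes were isolated, and in such a fraction fewer cells of a type and less RNA per cell cannot be told apart.

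Notch receptors are single-pass membrane proteins that are switched on by ligands of the Delta and Jagged families on a neighbouring cell. Ligand binding lets ADAM10 and then the gamma-secretase complex cut the receptor, and the freed intracellular domain joins RBPJ and Mastermind proteins on DNA. HES1 is a classical direct target of that complex: a basic helix-loop-helix repressor that recruits Groucho/TLE corepressors and keeps progenitors from differentiating. HES6 belongs to the same family but is known for opposing HES1. NOTCH2 is the receptor best known in monocytes, dendritic cells and marginal zone B cells, and NOTCH3 in vascular smooth muscle and pericytes as well as in developing T cells.

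Since each gene rests on a single 60-base probe, the last 30 bases of each are shown to make clear which stretch was read out, as the deposited scanner tables give them, 5′ to 3′. Capitals mark AATAAA, the usual polyadenylation signal of a messenger RNA.
HES1: cttccttttgggaagtttatttgagaaaat
HES6: cttccgggAATAAAactgatgcctgactgt
NOTCH2: ataactgtttggtactgtggcttcttactt
NOTCH3: taagtccccaggccttgcattgtacagccc
AATAAA was found in the HES6 probe, 16 bases before its end, and in 11.3% of all 15208 probes read on the same strand. The reverse complement of AATAAA was found in 4.14%, and the HES1 stretch shown holds it, unmarked. The HES1 probe was poor in G and C, at 26.7%, and 1.38% of the probes had a lower content. The other probes lay at 45.0% for HES6 and NOTCH2 and 51.7% for NOTCH3, against a median of 43.3%. For each of the 4, 0 other probes of the array shared a run of 20 bases with it on either strand.

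The arrays had a median processed signal of 49.1 to 186.9 intensity units, and 56.8% to 74.9% of the 15208 probes were well above background on an array. Values below are normalised log2 signals, in which each array's 75th percentile was subtracted from the log2 processed signal, so that 0 stands for that percentile. Levels of different probes are not set against each other, though levels of marker genes are summed below. Probes well above background on 4 or more of the 8 arrays were tested, 10459 in number, and all 4 genes were among them. With limma and Benjamini-Hochberg adjustment over those probes, 0% (0 of 10459) were called at an adjusted p under 0.05, and 0 of the 4 genes were. At an unadjusted p under 0.05 limma had 9.48% of the probes (991; 4.92% higher and 4.55% lower on day 21) and 0 of the 4 genes. With cow as a block the probes were 1991, and the genes still 0. Cow 1 weighed on these counts: limma called 48 probes without its day 21 sample and 38 without both its samples, with none of the 4 genes among them. The median log2 change of all tested probes was 0.07.

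HES1 differed more between cows than between days. On day 7 its normalised log2 signal was -5.36 in cow 1, -3.19 in cow 2, -0.65 in cow 3 and -0.23 in cow 4. On day 21 it was -4.06, -5.68, -2.67 and -1.09 in the same order. Cows 3 and 4 were high on both days and cows 1 and 2 low on both, and the groups overlapped over most of their range. The processed signal ran from 10.1 intensity units (cow 2, day 21, the 1 array of 8 on which HES1 was not well above background) to 1216 (cow 3, day 7), with an error given by the scanner software of 10% to 25.7% of the signal.

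The day 21 minus day 7 difference of HES1 was 1.30 in cow 1, -2.49 in cow 2, -2.02 in cow 3 and -0.85 in cow 4. HES1 was thus lower on day 21 in 3 of 4 cows and higher in cow 1. The group means were -2.36 ± 2.39 on day 7 and -3.37 ± 1.96 on day 21 (SD, n = 4), a log2 change of -1.02 ± 1.21 (SE), or 2.02-fold lower, with a 95% interval from -3.70 to 1.67. That change did not pass limma over all probes (adjusted p = 0.824; adjusted p = 0.414 with cow as a block, where the SE was 0.62). Its SD over the 8 arrays, 2.09, was larger than that of 98.4% of the tested probes, whose median was 0.67. Its cow means spanned 4.05 log2 units. Leaving out the day 7 array of cow 1 gave -2.02, and leaving out the day 21 array of cow 2 gave -0.25.

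**Figure D1:**
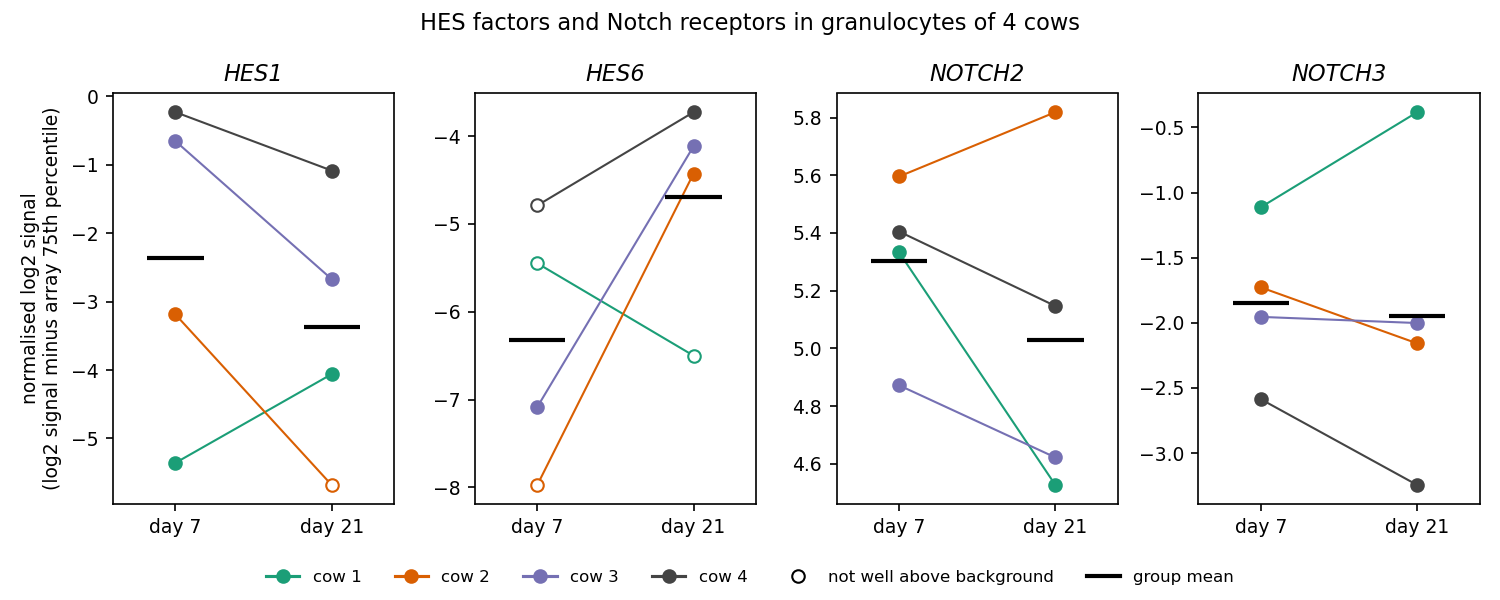
Normalised log2 signal of HES1, HES6, NOTCH2 and NOTCH3 on day 7 and day 21, with a line for each of the 4 cows, black bars for the group means and open circles for arrays on which the probe was not well above background; the vertical scale differs between panels. HES1 was lower on day 21 in cows 2, 3 and 4 and HES6 higher in the same cows, with cow 1 the other way in both, while NOTCH2 stayed between 4.53 and 5.82.

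HES6, the antagonist of HES1, was read near the background, above all on day 7. On day 7 its normalised log2 signal was -5.45 in cow 1, -7.97 in cow 2, -7.09 in cow 3 and -4.79 in cow 4. On day 21 it was -6.50, -4.43, -4.12 and -3.73. Cows 2, 3 and 4 were thus all above the 4 day 7 values on day 21, and cow 1 was below 2 of them. The probe was well above background on 1 of 4 arrays of day 7 (cow 3) and on 3 of 4 of day 21 (not in cow 1). It therefore entered the test mainly through day 21. The processed signals were 4.29 to 37.7 intensity units on day 7 and 14.8 to 90.2 on day 21. In cow 2 on day 7 the software's error was 83.3% of the signal. The 37.7 was that of cow 4 on day 7, which was not well above background. The floor of that array lay higher. Its negative controls had an SD of 10.5, against 1.96 to 2.85 on the others, and its lowest signal was 10.6, against 2.17 to 3.61. The cow 4 difference of HES6 starts from that array.

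The differences of HES6 were -1.05 in cow 1, 3.55 in cow 2, 2.97 in cow 3 and 1.06 in cow 4, so it was higher on day 21 in 3 of 4 cows. The means were -6.32 ± 1.46 and -4.69 ± 1.24 (SD, n = 4), a log2 change of 1.63 ± 0.79 (SE), with a 95% interval from -0.11 to 3.37. It did not pass limma (unadjusted p = 0.0635, adjusted p = 0.560), nor with cow as a block (SE 0.75, adjusted p = 0.297). The size of the change rests on day 7 values of which 1 of 4 was well above background, so no fold is given. After normexp background correction, which compresses dim signals, the change was 0.41 (with the 75th percentile) or 0.40 (with quantile normalisation). Leaving out both arrays of cow 1, the cow of the other sign, gave 2.53 (limma unadjusted p = 0.0122, adjusted p = 0.156). In that setting 1845 of the 10459 tested probes had an unadjusted p under 0.05 in limma. Leaving out both arrays of cow 2 gave 0.99.

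NOTCH2 was bright on every array and close in all of them. Its normalised log2 signal was 5.33, 5.60, 4.87 and 5.40 in cows 1 to 4 on day 7, and 4.53, 5.82, 4.62 and 5.15 on day 21. Every array gave 26611 intensity units or more, and the groups overlapped. The lowest value, on day 21 in cow 1, and the highest, on day 21 in cow 2, lay in the same group. The cow differences were -0.81, 0.22, -0.25 and -0.26, lower on day 21 in 3 of 4 cows. The means were 5.30 ± 0.31 and 5.03 ± 0.59 (SD, n = 4), a log2 change of -0.27 ± 0.39 (SE; limma adjusted p = 0.856). The 95% interval without a block, -1.13 to 0.59, was the narrowest of the 4 genes. Fitted with cow as a block, the change had an SE of 0.27 (limma adjusted p = 0.610). The SD of NOTCH2 over the 8 arrays was 0.46, and 18.9% of the tested probes had a smaller one. With slide as a fixed block the change was -0.53, and leaving out cow 2 on day 21 gave -0.54. Cow 2 on day 21 was alone on its slide, so with slide fixed it did not enter the estimate. The settings are therefore not separate checks.

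NOTCH3 was well above background on 8 of 8 arrays, and its order over the cows was nearly the same on both days. Its normalised log2 signal was -1.11, -1.73, -1.95 and -2.59 in cows 1 to 4 on day 7, and -0.38, -2.16, -2.002 and -3.25 on day 21. Cow 1 was the highest and cow 4 the lowest on each day, whereas HES1 was highest in cow 4 on each day. The cow differences of NOTCH3 were 0.73, -0.43, -0.05 and -0.66, lower in 3 of 4 cows. The means were -1.85 ± 0.61 and -1.95 ± 1.18 (SD, n = 4), a log2 change of -0.10 ± 0.58 (SE; limma adjusted p = 0.970; 95% interval -1.40 to 1.19). Fitted with cow as a block, the change had an SE of 0.31 (limma adjusted p = 0.878). The direction turned with slide as a block (0.20 fixed, 0.09 random), without the day 7 array of cow 1 (0.14), without the day 21 array of cow 4 (0.33), and without both arrays of cow 2 (0.01) or cow 4 (0.08).

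Cow 1 stood against the other three in HES1, HES6 and NOTCH3. That arrangement of signs was found in 27.7% of the 10307 tested probes measured in all 8 samples, more often than with cow 2 (9.97%), cow 3 (4.32%) or cow 4 (5.39%) as the odd one. The arrangement is thus common on these arrays and is not particular to these genes. A difference of 1 sign in all 4 cows was found in 29.8% of these probes (15.5% higher and 14.3% lower on day 21) and in 0 of the 4 genes. Groups that did not overlap were found in 5.62% of them and also in 0 of the 4.

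Slides were told apart by the barcode of each array. Cow 1 was read on slide 1 on both days, and cow 2 on slide 1 on day 7 but alone on slide 2 on day 21. Cow 3 was read on slide 3 and cow 4 on slide 4. Within slide 1, where 1 array of day 21 is set against 2 of day 7, the log2 difference was 0.21 for HES1, 0.21 for HES6, -0.94 for NOTCH2 and 1.04 for NOTCH3. Within slides 3 and 4 the differences are those of cows 3 and 4 above. Slide and cow largely coincide, so the separation of HES1 between cows 1 and 2 and cows 3 and 4 cannot be told apart from slide.

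The rest of the HES and HEY family was sparsely measured. Of 13 genes of this repressor family 6 had a probe, and 3 were tested. The third tested member besides HES1 and HES6 was BHLHE41, a clock-linked repressor of the DEC branch. Its normalised log2 signal was -0.27, -1.43, -0.12 and -0.62 in cows 1 to 4 on day 7, and -0.21, -4.46, -0.998 and -1.76 on day 21. The low value of cow 2 on day 21 stood apart, and the change was -1.25 ± 0.79 (SE; limma adjusted p = 0.647), lower in 3 of 4 cows. With cow as a block its unadjusted p in limma was 0.0452 and its adjusted p 0.253. HEYL and HEY2, Notch targets of the cardiovascular system, were well above background on 0 of 8 arrays, and HEY1 on 1 of 8.

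Among the Notch pathway genes, 24 of 64 listed had a probe and 21 were tested, NOTCH2 and NOTCH3 included. limma called 0 of them higher and 0 lower, also at an unadjusted p under 0.05 (0 and 0), against 9.48% of all tested probes. With cow as a block limma still called 0, and at an unadjusted p under 0.05 it had 1 of 21, ADAM10 (lower), against 19% of all tested probes. Of the 21, 5 had a positive and 16 a negative log2 change, with a median of -0.27, while 55% of all tested probes were positive and their median was 0.07. The list median was negative in each cow, at -0.27, -0.12, -0.38 and -0.28. The genes share the same arrays, so their signs are not independent.

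Of 8 listed genes of receptor cleavage 4 were tested. All 4 had negative log2 changes, where 55% of all tested probes were positive, but not all were lower in each cow. ADAM10, which makes the first cut after ligand binding, had a log2 change of -0.84 ± 0.47 (SE; limma adjusted p = 0.613; with cow as a block SE 0.27, unadjusted p = 0.0177 and adjusted p = 0.197). Its cow differences were -0.54, -0.87, -0.57 and -1.39, lower in 4 of 4 cows, yet the day 7 values (-0.56 to 0.92) and the day 21 values (-1.43 to 0.21) overlapped. FURIN, which matures the receptor in the Golgi, gave -0.63, and the gamma-secretase components PSEN2 and PSENEN gave -0.30 and -0.25. FURIN and PSEN2 were each lower in 2 of 4 cows and higher in 2, and PSENEN was lower in 3 of 4. The FURIN probe was well above background on 3 of 4 arrays of each day. ADAM10 was the 1 of 21 list members that differed in the same direction in 4 of 4 cows, where 29.8% of all tested probes did.

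The other roles were mixed. POFUT1 and POGLUT1, which add the sugars that Notch needs for ligand binding, had log2 changes of 0.15 and 0.09. Among the genes of turnover, FBXW7, which marks the intracellular domain for degradation, gave 0.40 and NUMBL 0.36, while NEURL1, a ligase that acts on ligands, gave -0.61. In the nuclear complex, the coactivators MAML3 and EP300 gave -0.44 and -0.25. Corepressors ran from -0.75 for the demethylase KDM5A (limma adjusted p = 0.597, the smallest of the list) to 0.13 for CIR1. The targets MYC and IL2RA gave -0.51 and -0.32. DLL4, the 1 ligand with a probe, was well above background on 0 of 8 arrays, as were the corepressor TLE5 and the pre-T-cell receptor gene PTCRA. Another probe, described in the tables only as similar to Notch protein 1 and looked up after its values were seen, gave -0.37 ± 0.71 (SE; limma adjusted p = 0.896) and was lower in 4 of 4 cows.

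**Figure D2:**
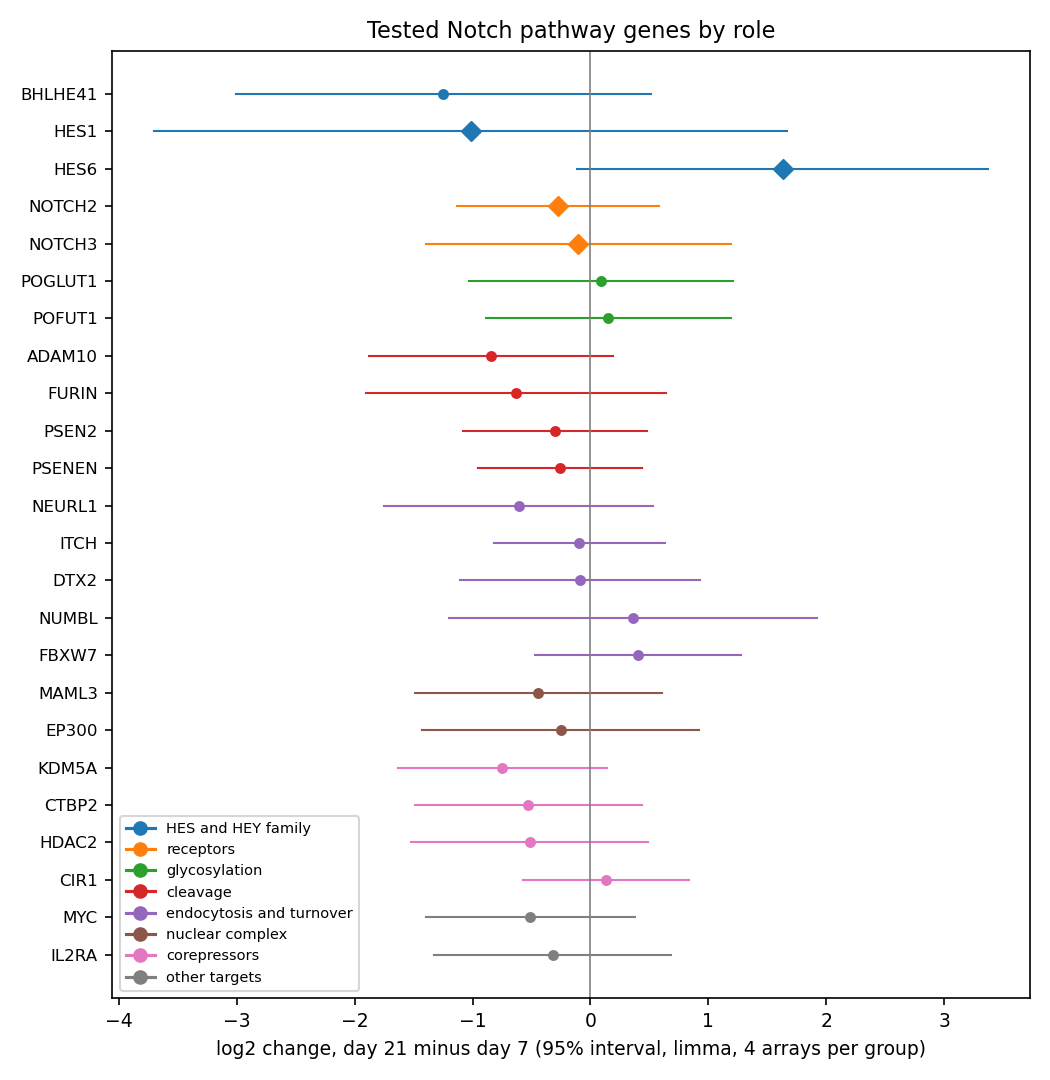
Log2 change (day 21 minus day 7) with its 95% interval from limma with no block, for the tested HES and HEY family and Notch pathway genes. Genes are coloured by role, with diamonds for HES1, HES6, NOTCH2 and NOTCH3. Without a block each interval crosses 0, and those of HES1 (-3.70 to 1.67) and HES6 (-0.11 to 3.37) are wide. With cow as a block, not drawn, the SE of HES1 was 0.62. ADAM10 and BHLHE41 then had an unadjusted p in limma of 0.0177 and 0.0452 (adjusted p = 0.197 and 0.253).

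The genes with a pattern most like each of the 4 were taken by Pearson's r over the 8 arrays, among 5004 tested probes with a gene symbol. These are the highest of many correlations over arrays that share cows and slides, so the values are descriptions. For HES1 they were CISH (r = 0.967), a cytokine-induced inhibitor of STAT5 signalling, GIT2 (0.957) and PNRC2 (0.934). CISH had the same order of cows 3 and 4 above cows 1 and 2. Its cow differences were 0.77, -1.21, -1.89 and -1.83, with a log2 change of -1.04 ± 0.93 (SE; limma adjusted p = 0.755).

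For HES6 the closest were GNL1 (r = 0.940), the transcription factor ELK1 (0.912) and CCNT1 (0.912), the cyclin of the elongation kinase P-TEFb. For NOTCH2 they were PELO (0.978), a ribosome rescue factor, KLK1 (0.965) and OXSR1 (0.963), and for NOTCH3 DYNC2I2 (0.959), MATK (0.955) and TMCO4 (0.949). The 4 genes did not follow each other: r over the 8 arrays was 0.03 for HES1 with HES6, -0.26 for HES1 with NOTCH2 and -0.58 for HES1 with NOTCH3. It was 0.03 for HES6 with NOTCH2, -0.55 for HES6 with NOTCH3 and -0.36 for NOTCH2 with NOTCH3.

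**Figure D3:**
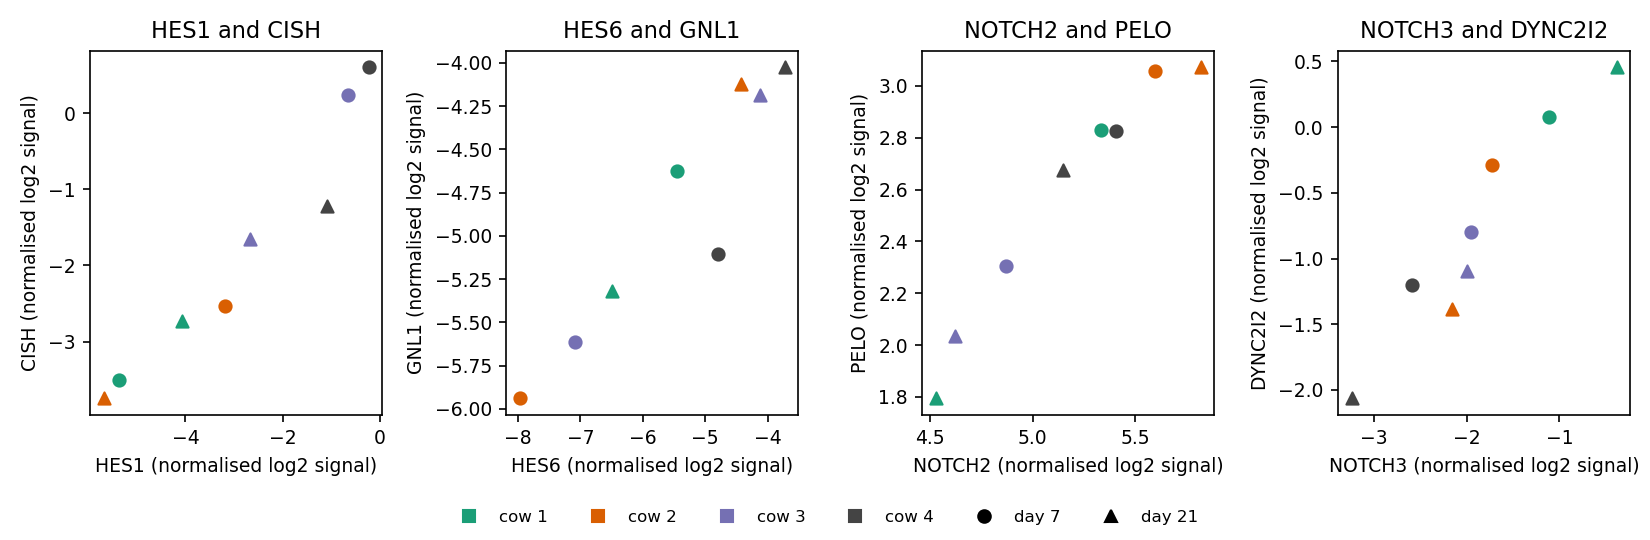
Normalised log2 signal of each of the 4 genes (horizontal) against the gene of highest Pearson's r with it (vertical), 8 arrays each, coloured by cow, circles for day 7 and triangles for day 21. The arrays of cows 3 and 4 lie at the top of the HES1 and CISH panel (r = 0.967), and in the HES6 and GNL1 panel (r = 0.940) 3 of the day 21 arrays lie at the top.

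Marker genes were set beside these values. Of 7 neutrophil markers 3 had a probe (FCGR3A, MMP9 and S100A8), each well above background on 8 of 8 arrays. Their summed normalised level on a linear scale was 41.5 to 60.8 on day 7 and 39.7 to 53.4 on day 21, with overlap. S100A8 was the largest part of that sum on every array. Its cow differences were -0.41, -0.66, -0.14 and 0.13. Those of MMP9 were -3.71, 1.83, 0.30 and 0.01, and those of FCGR3A 0.90, -2.33, 0.08 and 0.03. Of 9 monocyte and macrophage markers 7 were tested, and their summed level was 6.58 to 9.57 on day 7 and 10.5 to 17.8 on day 21, without overlap. By themselves CD14 and VCAN did not overlap and the other tested ones did, where 5.62% of single tested probes did not overlap. CD14, MRC1 and VCAN were higher on day 21 in 4 of 4 cows, where 15.5% of tested probes were. C1QA, C1QB and C1QC were higher in 3 of 4 cows and CD68 in 1 of 4, and limma called 0 of the 7. The cow that differed from the rest was cow 1 for C1QA, as for HES6, but cow 2 for C1QB and C1QC. C1QA was well above background on 1 of 4 arrays of day 7 and on 3 of 4 of day 21. Of its 4 day 7 values 2 were surrogates set by the software, so its cow differences start near the background. Of 9 T cell markers 5 were tested, with a summed level of 5.39 to 13.1 and 8.37 to 11.9. Of 6 B and plasma cell markers 4 were tested, with 15.3 to 31.5 and 15.4 to 19.7. CD79A did not overlap and was higher in 4 of 4 cows. MS4A1 was higher in 4 of 4, JCHAIN in 3 of 4 and BLK in 1 of 4. Summed levels also overlapped for NK and cytotoxic (2.00 to 9.55 and 2.41 to 12.7), platelet (1.57 to 4.88 and 1.68 to 5.89) and erythroid markers (1.95 to 4.65 and 2.35 to 5.08). P2RY12, a platelet marker, was lower in 4 of 4 cows without overlap.

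Of 7 eosinophil and basophil markers 3 were tested (CCR3, HDC and IL4), with a summed level of 0.132 to 1.81 on day 7 and 0.233 to 1.16 on day 21. The cow differences of CCR3, the eotaxin receptor of eosinophils, were 0.44, -1.66, -0.66 and -0.69. Those of HDC, the enzyme that makes histamine, were 2.47, 0.36, 0.96 and 0.46, and those of IL4 were 1.498, -2.36, -0.85 and 0.50. HDC was well above background on 1 of 4 arrays of day 7 and 3 of 4 of day 21, and IL4 on 2 of 4 and 3 of 4. The day 7 value of HDC in cow 1 was a surrogate set by the software, so both genes were read near the background. The signs of CCR3 were those of HES1 in each cow, an arrangement found in many probes as given above, while HDC and IL4 had other signs. Among the markers of vessel walls, where NOTCH3 is best known, CDH5 was well above background on 0 of 8 arrays and VWF on 1 of 8; PECAM1 and ACTA2 were tested, with a summed level of 0.0520 to 0.152 on day 7 and 0.0999 to 0.195 on day 21. The part of these cells in the values of HES1, HES6, NOTCH2 and NOTCH3 was not tested.

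**Figure D4:**
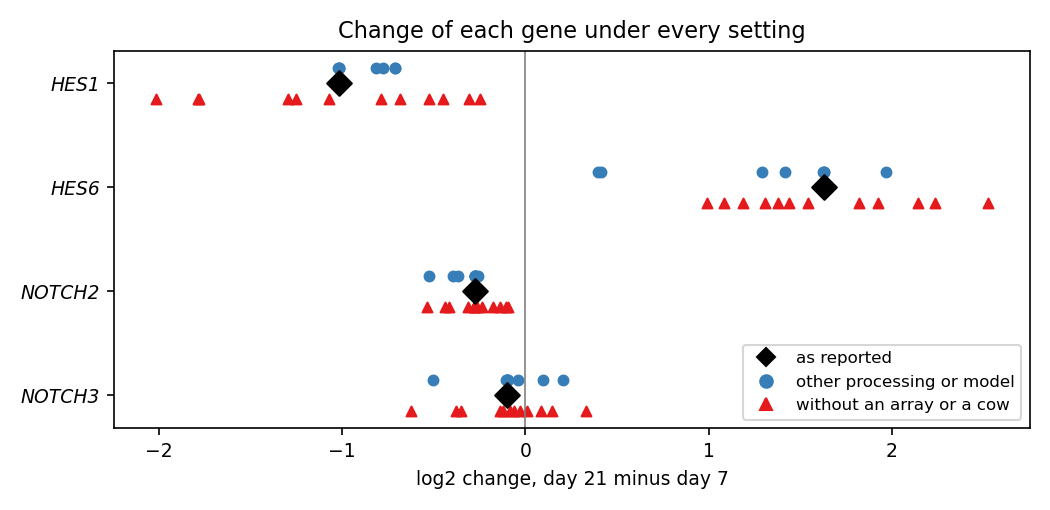
Log2 change (day 21 minus day 7) of the 4 genes as reported (black diamonds), under other processing or models (blue circles) and without an array or a cow (red triangles). HES1 stayed negative (-2.02 to -0.25), HES6 positive (0.40 to 2.53) and NOTCH2 negative (-0.54 to -0.10) under the settings run, while NOTCH3 took both signs (-0.62 to 0.33).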

How the data were processed

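Granulocyte RNA was extracted, amplified and Cy3-labelled per the labels' protocols and read on Agilent arrays in 1 colour. The authors' scans were turned into spot intensity by Agilent Feature Extraction 9.5, per the submitters' processing notes, with background subtraction and detrending within the array, per the file headers. The deposited series table holds log2 values that match those of the scanner tables up to a constant for each array, within 0.00485, and served as an alternative. Flags and surrogates are those of the software.

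Control spots were left out and outlier spots set to missing. Symbols came from the accession, the gene identifier, the gene name or the symbol in parentheses in the description or systematic name, through RefSeq (ARS-UCD2.0, names only; 6906 of 15208 probes named). NOTCH2 and NOTCH3 were named by that symbol, HES1 by accession and HES6 by gene identifier. No coordinates are given because no source used here states the array's genome build.

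The main test was limma 3.58.1 in R 4.3.3 with no block, so its SEs include the differences between cows. The script was tested on simulated data. The pairing by cow comes from the source names. Samples of a cow correlated at 0.172 to 0.752 in their deviations from group means, and samples of different cows at -0.474 to 0.302. Cows 1, 3 and 4 each had both samples on the same slide, and cow 2, split over slides, had the 0.172. The 0.302 was that of cow 2 on day 7 with cow 1 on day 21, different cows that were both on slide 1. Cow and slide thus largely coincide in these correlations, and the part of each was not tested. Named were the 4 genes, list members with values, and the 3 genes of highest r with each. Genes, lists and tests were chosen with earlier results of these data known. The number of arrays limits the precision. Some genes of the lists are not reported here and were left out of the list counts, medians and sums.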

Additional observations from a re-analysis of the deposited data

How the results depend on the processing

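Under 20 or 21 alternatives each, none of the 4 genes passed: adjusted p was 0.414 to 1.00 for HES1, 0.117 to 1.00 for HES6, 0.553 to 1.00 for NOTCH2 and 0.516 to 1.00 for NOTCH3. HES1 and HES6 could not be fitted in the set well above background on all 8 arrays, no gene had a further probe to try, and HES4 had no value. Only NOTCH3 changed sign: 0.20 with slide as a fixed block, 0.0949 with slide as a random block, and -0.62 to 0.33 without an array or a cow; the cause was not tested. Without an array or a cow the range was -2.02 to -0.25 for HES1, 0.99 to 2.53 for HES6 and -0.54 to -0.10 for NOTCH2. With cow as a replicate block the estimates are the same by construction (HES1 -1.02, HES6 1.63), and no gene's call changed. Over all probes limma called 12 with slide as a random block and 601 with array quality weights, which ran from 0.357 to 3.47, and 0 to 48 without an array or a cow. At an unadjusted p under 0.05 there were 1991 with the cow block, 1519 with slide as a random block, 2445 with weights, and 371 to 1845 without an array or a cow. The median of the Notch pathway list stayed between -0.38 and -0.21, and that of the 3 family members between -1.68 and -0.25. Without the filter on dim probes the median of all probes moved to -0.12.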
